A study of Rattus norvegicus with 6 samples.

Results

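The 2087 regions described here are accessible sites that were in the peak lists of Med14 S983A INS-1 cells with both stimuli and in no other peak list. They were chosen by their peak calls: each is a merged ATAC-seq peak, off the mitochondrial chromosome, that was called in the Med14 S983A Ex-4 and Med14 S983A FSK libraries and in none of the other 4 libraries. They make up 0.947% of the 220487 merged peaks. INS-1 is an insulin-secreting rat tumour line that serves as a model of the beta cell. WT cells and cells with the Med14 S983A knock-in, in which alanine replaces a serine of Med14, were each kept without a stimulus (CON) or treated during 1 h with 10 nM Exendin-4 (Ex-4) or 10 µM forskolin (FSK), all in serum-free medium. The mutant cells were CRISPR-edited clones grown from sorted single cells. Of the 2 such lines that the study made, the one behind the 3 mutant libraries is not named in the sources used here, nor is any pooling of cells. Each of the 6 conditions had 1 library, so the data hold no replicate error and every difference below describes these libraries alone.

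ATAC-seq reads collect at DNA open to the Tn5 transposase, and a peak marks open chromatin such as an enhancer or promoter. Ex-4, a stable agonist of the GLP-1 receptor, and FSK, which activates adenylate cyclase directly, both raise cAMP in beta cells, and cAMP releases PKA to phosphorylate CREB and induce early genes, AP-1 factors among them. Med14 is the scaffold of Mediator, the complex that links enhancer-bound factors to RNA polymerase II, and the replaced serine lies in a PKA recognition site. Genes, promoters, motifs and cell type markers at these regions were not analysed here, because the peaks are in rn6 coordinates and the annotation at hand is of another build.

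Values are FPKM scaled to the reads that fall in a library's own called peaks, and a 0 stands for a peak missing from the library's own list, not for a measured absence of reads. The members are therefore listed at 0 in the other 4 libraries by their choice, and their change from CON or from WT has no measured size. Depth differed between libraries, with 134.3 M reads in peaks in Med14 S983A CON, 147.1 M in Med14 S983A Ex-4 and 163.0 M in Med14 S983A FSK. The WT libraries held 151.5 M in CON, 158.8 M in Ex-4 and 251.2 M in FSK. The shallowest library, Med14 S983A CON, is thus among those that lack the members, and so is the deepest, WT FSK.

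Most members were weak and short. In Med14 S983A Ex-4 the members ranged from 0.388 to 32.0 FPKM with a median of 2.11, while the median over all peaks called in that library was 4.80 FPKM. In Med14 S983A FSK they ranged from 0.446 to 34.1 FPKM with a median of 2.40, against 4.39 FPKM for all called peaks. The median member stood at percentile 20.5 of the called peaks with Ex-4 and at percentile 25.3 with FSK. Read numbers behind these values were modest, with a median of 57 reads per member with Ex-4 and 70 with FSK. At least 1 FPKM in both libraries was reached by 1930 members (92.5%), at least 5 FPKM by 147 (7.04%) and at least 10 FPKM by 43 (2.06%). The members had a median length of 179 bp, close to the 191 bp of their WT counterparts, the 2384 peaks called in WT Ex-4 and WT FSK and nowhere else. Peaks called in all 6 libraries, 86576 in number, were longer, with a median of 584 bp, and stronger, with 8.05 FPKM in Med14 S983A Ex-4.

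**Figure D1:**
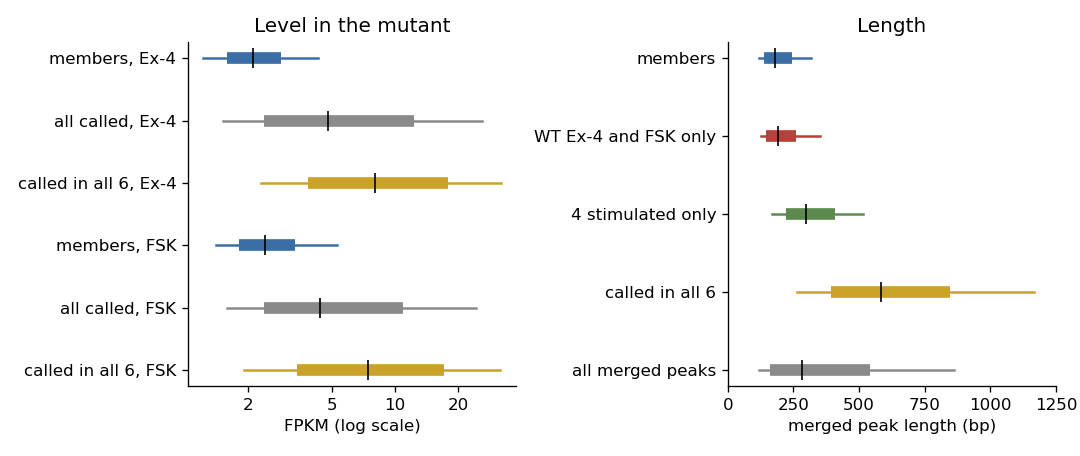
Levels in FPKM on a log axis (left) and merged peak lengths in bp (right). Thin lines span the 10th to the 90th percentile, thick bars the quartiles and ticks the median; the members' medians of 2.11 FPKM with Ex-4 and 2.40 FPKM with FSK lie below those of all called peaks, and their median length of 179 bp below the 284 bp of all merged peaks.

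In the mutant, calls shared by exactly a pair of lists were rarer than the other patterns. Peaks called in Med14 S983A FSK alone numbered 10917 and those called in Med14 S983A Ex-4 alone 5593, so the 2087 members are the smaller group that both stimulated lists share. Of the pairs that hold CON in the mutant, CON and Ex-4 alone was of like size, with 2162 peaks, and CON and FSK alone was smaller, with 998. The peaks of CON and Ex-4 alone also resembled the members in length and level, with a median of 178 bp and of 2.40 FPKM in Med14 S983A Ex-4. Another 3465 peaks would join the members but for a call in WT FSK, 149 but for a call in WT CON and 113 but for a call in WT Ex-4. The stimulated pair was thus not more frequent than the pair of CON with Ex-4, but more frequent than the pair of CON with FSK. How much of the pattern comes from weak peaks crossing the calling threshold was not tested.

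The levels of the members can be set beside those of the peaks that the other lists do hold, as a description, since the members were chosen by calls in the libraries that give their levels. For each member, the lower of its FPKM with Ex-4 and FSK was set against the peaks of like length called in another library. In Med14 S983A CON, 1362 members (65.3%) exceeded the 10th percentile of such called peaks and 304 (14.6%) exceeded their median. In WT CON the numbers were 1485 (71.2%) and 372 (17.8%), in WT Ex-4 1536 (73.6%) and 429 (20.6%), and in WT FSK 1536 (73.6%) and 459. Most members thus stood above the weakest called peaks of their length and few above the middle of them. The 10th percentile is no detection limit, and the level of a member in a library that lacks it stays unknown. Of the 2087 members, 4 carried a small value in WT FSK without a call there, from 0.013 to 0.172 FPKM, and 4 in Med14 S983A CON, from 0.102 to 0.511 FPKM. None carried a value in WT CON or WT Ex-4.

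The edge of the rule shows how fine the line is. The weakest member, chr14:46580591-46580766, stood at 0.388 FPKM with Ex-4 (10 reads) and 0.561 FPKM with FSK (16 reads). The next weakest were chr7:20467552-20468047, at 1.52 and 0.446 FPKM, and chr7:81811107-81811347, at 0.481 and 0.588 FPKM. The first of these chromosome 7 peaks lies 27 bp from another merged peak that was called in WT CON, Med14 S983A CON and Med14 S983A FSK. Just outside the rule through a call in Med14 S983A CON was chr12:9406256-9407162, with 0.23, 1.40 and 0.806 FPKM in the CON, Ex-4 and FSK libraries of the mutant. Likewise chr16:10317681-10318201 had 0.243, 1.31 and 1.19 FPKM, and chr6:125730930-125731983 had 0.346, 1.09 and 1.45 FPKM. These 3 were picked for the lowest CON value among the 4998 peaks called in the 3 mutant libraries alone. Their higher values with each stimulus thus largely follow from the choice. Over all 4998 the medians were 3.59 FPKM in CON, 3.53 FPKM with Ex-4 and 3.21 FPKM with FSK. Just outside through a call in WT FSK was chrX:73691730-73692113, with 0.083 FPKM there against 0.692 with Ex-4 and 0.785 with FSK in the mutant. In the same way chr13:66246440-66246732 had 0.327 FPKM in WT FSK against 0.349 and 0.883, and chr1:74868531-74868767 had 0.354 against 0.547 and 0.364. The latter pair was thus about as strong in WT FSK as in a stimulated mutant library.

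Both stimuli gave the members like levels, slightly higher with FSK. The difference of log2(FPKM + 0.5) between Med14 S983A FSK and Med14 S983A Ex-4 had a median of 0.13 over the members, with quartiles of -0.15 and 0.43. FSK was the higher in 1297 members (62.2%). Over all 110424 peaks called in both libraries the median was -0.064. The members were weak among called peaks, and no comparison at like level was made. Grouped by their lower value, the members had a median of 0.58 below 1 FPKM, 0.058 at 3 to 5 FPKM and 0.14 above 10 FPKM. A 2-fold higher value with FSK was seen in 114 members (5.46%), against 4.16% of all peaks called in both, and a 2-fold higher value with Ex-4 in 6 (0.288%), against 2.22%. The first share is near its background, and because both values were used to choose the members neither share was tested. The WT counterparts had a median above 0 as well in WT cells, at 0.18. Of these 2384 peaks, 287 were at least 2-fold higher with FSK, a larger share than the 5.46% of the members. The background over all peaks called in both stimulated libraries was computed for the mutant alone. The WT values here therefore cannot be told apart from a difference between the WT libraries as a whole. The 1383 peaks called in the 4 stimulated libraries and in neither CON leaned further, with a median of 0.66 in Med14 S983A and 1.17 in WT. Peaks called with both stimuli in both genotypes, and in neither CON, thus had a wider FSK excess than the members. Across the 2087 members the log2 FPKM of the 2 libraries had Pearson's r = 0.736, a description over peaks that share both libraries and, for each peak, 1 length.

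**Figure D2:**
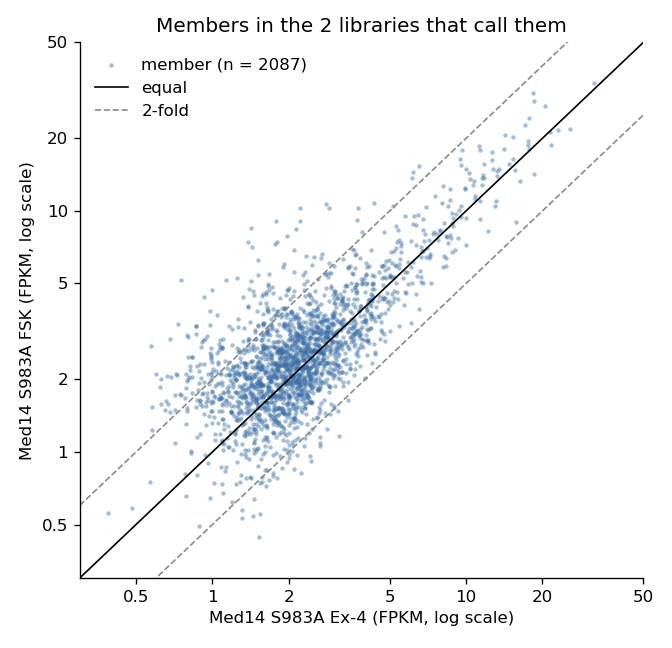
FPKM of each of the 2087 members in Med14 S983A Ex-4 (horizontal) and Med14 S983A FSK (vertical), both on log axes, with lines of equality (solid) and of a 2-fold difference (dashed). Most points sit between 1 and 5 FPKM near the solid line, and more of them pass the upper dashed line than the lower.

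Single members at the ends of this spread were named by size. Among members of at least 2 FPKM in both libraries, the largest FSK excess was at chr12:51422215-51423227, a wide peak of 1012 bp with 2.22 FPKM with Ex-4 and 10.2 FPKM with FSK, a 4.62-fold ratio. The member chr9:100165770-100166169 had 2.21 FPKM with Ex-4 against 9.07 with FSK. Its neighbour 414 bp away is no member, because it was called in 5 libraries, and it showed the same order, with 3.40, 4.75 and 12.7 FPKM in Med14 S983A CON, Ex-4 and FSK. In WT that neighbour was listed at 0 in CON and had 0.926 FPKM with Ex-4 and 4.21 FPKM with FSK. Both lie in a long stretch of chromosome 9, described below, where peaks called in all 6 libraries had a higher median in Med14 S983A. The third, chr5:138260705-138260978, had 2.14 and 8.45 FPKM. The reverse excess was smaller, reaching 3.996 FPKM with Ex-4 against 2.04 with FSK at chr16:69101608-69101807. The strongest of that kind, chr16:20579195-20579496, stood at 15.7 FPKM with Ex-4 and 8.99 FPKM with FSK, and chr5:142197656-142197779 had 4.26 and 2.35 FPKM.

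The strongest members were short peaks, often near a longer site called in every library. The 10 with the highest lower value spanned 98 to 159 bp, and in 7 of them the nearest other peak was one called in all 6 libraries. Over all members this held for 677 (32.4%), a lower share than the 39.1% of all merged peaks. First of the 10 was chr9:82510074-82510208, at 32.0 FPKM with Ex-4 (29.6 to 34.6, 95% counting interval) and 34.1 FPKM with FSK (31.7 to 36.6). It lies 153 bp from a peak called everywhere, which had 26.9, 27.2 and 20.5 FPKM in WT CON, Ex-4 and FSK and 66.4, 69.0 and 60.1 FPKM in Med14 S983A. The neighbour was therefore higher in the mutant with and without a stimulus, and neither stimulus changed it 2-fold. Second was chr14:37109974-37110097, at 25.7 and 21.9 FPKM, 140 bp from a site at 74.3 FPKM in WT CON and 69.2 FPKM in Med14 S983A CON. At chr14:34228855-34228976, with 21.5 and 21.2 FPKM, the site 127 bp away was higher with each treatment than in CON in both genotypes. That site had 56.9, 71.3 and 78.9 FPKM in WT CON, Ex-4 and FSK and 72.1, 86.2 and 101.6 FPKM in the mutant. The member chr5:167291004-167291124, with 17.7 and 24.2 FPKM, has a neighbour 362 bp away that was higher with FSK than in CON, at 27.4 against 13.4 FPKM in WT and 57.1 against 32.5 FPKM in the mutant, and not with Ex-4, at 13.1 and 32.4 FPKM. This member and its neighbour lie in a chromosome 5 stretch described below, where the median genotype difference in CON was 0.90.

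In the other 3 the nearest peak was missing from some lists. The shortest of the 10, chr7:11247071-11247169, stood at 23.0 FPKM with Ex-4 and at 21.7 FPKM with FSK, and its nearest peak, 1242 bp away, was called in Med14 S983A FSK alone. The nearest peak of chr9:96788515-96788670, which had 18.5 and 28.5 FPKM, was called in the 3 mutant libraries and in no WT library, at 8.76, 9.96 and 13.2 FPKM. Both lie in the same chromosome 9 stretch as the strongest member. At chr1:263436375-263436519, with 18.3 and 30.8 FPKM, the nearest peak was called in Med14 S983A Ex-4 alone. The remaining 3, whose nearest peaks were called in all 6 libraries, were chr1:222179970-222180129 with 20.5 and 27.2 FPKM, chr17:13667631-13667742 with 21.6 and 18.9 FPKM, and chr17:9697858-9697963 with 17.7 and 18.0 FPKM. FSK was the higher in 6 of the 10.

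Among the strongest members, closeness to another peak was more frequent. Below 3 FPKM the share with any other peak within 500 bp showed no trend, while the share with one called in all 6 rose in each class. Of the 157 members whose lower value was under 1 FPKM, 38 (24.2%) had another peak within 500 bp, for 3 (1.91%) one called in all 6. Of the 966 members whose lower value was 1 to 2 FPKM, 276 (28.6%) had another peak within 500 bp, and for 76 (7.87%) that was a peak called in all 6 libraries. Of the 588 members at 2 to 3 FPKM, 151 (25.7%) had a peak that near, and of the 229 at 3 to 5 FPKM, 81 (35.4%). For 56 (9.52%) of the former members and 36 (15.7%) of the latter it was called in all 6. Of the 104 members at 5 to 10 FPKM, 55 (52.9%, 95% Wilson interval 43.4 to 62.2) had a peak that near, 39 of them (37.5% of the 104) a peak called in all 6. Of the 43 members above 10 FPKM these numbers were 23 (53.5%, 38.9 to 67.5) and 17 (39.5%). Over all merged peaks 24.8% had another peak within 500 bp, and the share with one called in all 6 was not computed. Length ran the other way, from a median of 320 bp below 1 FPKM to 128 bp above 10 FPKM, and FPKM divides by length. The part of short length and of the neighbouring peak in these values was not tested.

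**Figure D3:**
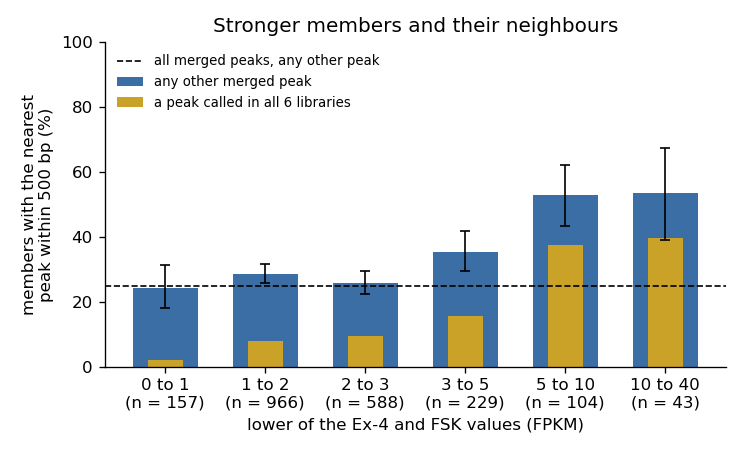
Percent of members with another merged peak within 500 bp (blue, with 95% Wilson intervals for counting error) and with a nearest peak within 500 bp that was called in all 6 libraries (yellow), by the lower of the Ex-4 and FSK values. Blue bars lie between 24.2% and 28.6% in the 3 weakest classes and reach 53.5% in the strongest, and the dashed line marks the 24.8% of all merged peaks.

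Peaks that the WT lists lacked were frequent beside the members. For 676 members (32.4%) the nearest other peak was called in Med14 S983A alone, in whichever treatment, against 31787 of all merged peaks (14.4%). It was called in WT alone for 264 members (12.6%), against 22.2% of all. The WT counterparts mirrored this, with 840 (35.2%) next to a peak called in WT alone and 203 (8.52%) next to one called in Med14 S983A alone. Another member was the nearest peak of 62 members (2.97%), against 0.972% of all merged peaks. These shares hardly moved outside the shifted stretches described next, where 592 of 1921 members (30.8%) had a neighbour called in Med14 S983A alone, against 14.1% of all peaks there.

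Members were unevenly spread over the genome, and part of this followed long stretches in which the whole chromatin signal differed between the genotypes. Such stretches were taken from runs of 200 consecutive peaks, each called in all 6 libraries, whose median lay 1.5-fold or more from that of all peaks, in the same direction under all treatments. The end of chromosome 5, from 154306858 to 173533976, was higher in Med14 S983A CON by a median of 0.90 on the log2 scale and held 80 members among 2582 peaks. On chromosome 9, from 79332023 to 111114791, the median was 0.89 and 86 of 2733 peaks were members. Together these stretches had 31.2 members per 1000 peaks (95% Wilson interval 26.9 to 36.3), against 9.01 per 1000 outside all stretches, while the WT counterparts had 4.89 per 1000 in them. The end of chromosome 4, from 159247647 to 180266951, and the start of chromosome 15, from 56885 to 5565084, were lower in the mutant, by 0.89 and 0.67 on the log2 scale. No member was found among their 2061 peaks, which allows up to 1.86 per 1000, although 715 of these peaks were called in both stimulated mutant libraries. They held 64 of the WT counterparts, or 31.1 per 1000. Peaks called in the 4 stimulated libraries and in neither CON had 4.52, 5.34 and 6.33 per 1000 in the higher, lower and remaining regions. The stretches were shifted in CON as well, and effects of the clone and of the mutation cannot be told apart.

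Chromosome 9 had 18.6 members per 1000 peaks and chromosome 5 had 14.7, against 9.47 over all chromosomes. Without the stretches these densities were 13.5 and 11.1 per 1000. The part of chromosome 9 past its last full run held a further 36 members among 919 peaks, at 39.2 per 1000, with a median genotype difference of 0.85 in CON over 294 peaks called in all 6. The densest window of 1 Mb in the genome lies there, at chr9:112000000-113000000, with 15 members of 117 peaks and no WT counterpart. The next were chr9:96000000-97000000, with 13 members, and chr5:159000000-160000000, with 12. The lowest density was on chromosome X, with 26 members or 4.65 per 1000, where no shifted stretch was found, and chromosome 15 had 5.68 per 1000. The densities of chromosomes without a stretch varied too. Chromosome 6 had 6.06 (4.72 to 7.78) and chromosome 17 had 7.15 per 1000. Chromosome 2 had 7.71 (6.50 to 9.13) and chromosome 19 had 12.2 per 1000 (9.76 to 15.3). Their median genotype differences in CON were, in this order, 0.047, -0.16, 0.047 and 0.0067. The intervals cover counting error alone and take each member as independent, and no test between chromosomes was run. Of the 2788 windows with any merged peak, 1135 held at least 1 member. The 57 windows with 5 or more held 357 members, and how far this follows the density of peaks was not tested.

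**Figure D4:**
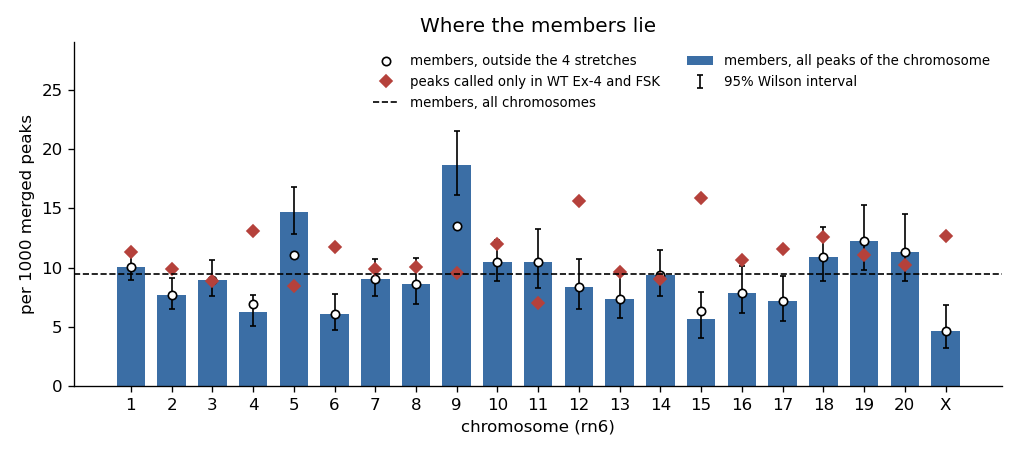
Members per 1000 merged peaks on each rn6 chromosome (bars, with 95% Wilson intervals for counting error), the same outside the 4 shifted stretches (open circles) and the peaks called in WT Ex-4 and FSK alone (red diamonds). Chromosomes 9 and 5 stand above the dashed line of 9.47 per 1000 and fall toward it outside the stretches, and chromosome 19 also lies above it; the intervals of chromosomes 2, 4, 6, 15, 17 and X lie below it.

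Peaks called in all 6 libraries have a value everywhere and were not used to choose the members, so those within 10 kb of a member give a view of the response around them. There were 2191 such peaks, and 1260 members (60.4%) had at least 1. With FSK in Med14 S983A, their median change from CON was -0.062 on the log2(FPKM + 0.5) scale, against -0.124 over all peaks called in all 6, and 111 of them (5.07%) were at least 2-fold higher, against 4.56%. With Ex-4 in the mutant the median was -0.020 both near members and over all, and 15 (0.685%) were 2-fold higher, against 0.635%. In WT the peaks near members had a median change of -0.103 with FSK, against -0.135 over all, and 124 (5.66%) rose 2-fold, against 5.94%. With Ex-4 in WT, 12 (0.548%) rose 2-fold, against 0.448%. Shares of peaks at least 2-fold higher near members were thus close to the background in both genotypes. At least 2-fold lower with FSK were 61 (2.78%) in Med14 S983A, against 4.28% of all, and 68 (3.10%) in WT, against 3.66%. With Ex-4, 4 peaks near members (0.183%) were 2-fold lower in the mutant, against 0.052%, and 2 (0.0913%) in WT, against 0.0647%. The small excess in the FSK medians shrank at shorter distance, to 0.012 above all peaks within 2 kb in Med14 S983A, from 0.062 within 10 kb. It was not particular to the members. Within 10 kb of the WT counterparts the FSK excess in Med14 S983A was 0.072, with 146 peaks (6.24%) at least 2-fold higher. Near the peaks called in the 4 stimulated libraries and in neither CON it was 0.105, with 133 (8.07%).

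The level in the mutant also differed around the members. In CON the peaks near members were higher in Med14 S983A than in WT by a median of 0.12, against 0.051 over all peaks, and the difference was 0.12 with Ex-4 and 0.14 with FSK. In CON, 201 of them (9.17%) were at least 2-fold higher in the mutant, against 4.9% of all, and 215 (9.81%) were at least 2-fold lower, against 10.5%. Peaks near the WT counterparts differed in the other direction, by -0.035 in CON, with 81 (3.46%) at least 2-fold higher in the mutant. The 226 peaks called in all 6 that were a member's nearest peak within 500 bp were higher in Med14 S983A by medians of 0.14, 0.17 and 0.19 in CON, Ex-4 and FSK. The median near members stood 0.067 above that of all peaks in CON, and 0.050 without the 4 stretches. The corresponding excess for FSK minus CON in Med14 S983A was 0.062 with and without the stretches. Within 10 kb the genotype difference and the FSK response thus lay about equally far from all peaks. Closer to the members they did not, with 0.082 for genotype and 0.012 for FSK over the 540 peaks within 2 kb. Over the 1068 peaks within 5 kb the values were 0.056 and 0.027. The values at these shorter distances keep the 4 stretches and were not computed without them. With 1 library per condition, none of these differences can be set against a replicate spread.

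**Figure D5:**
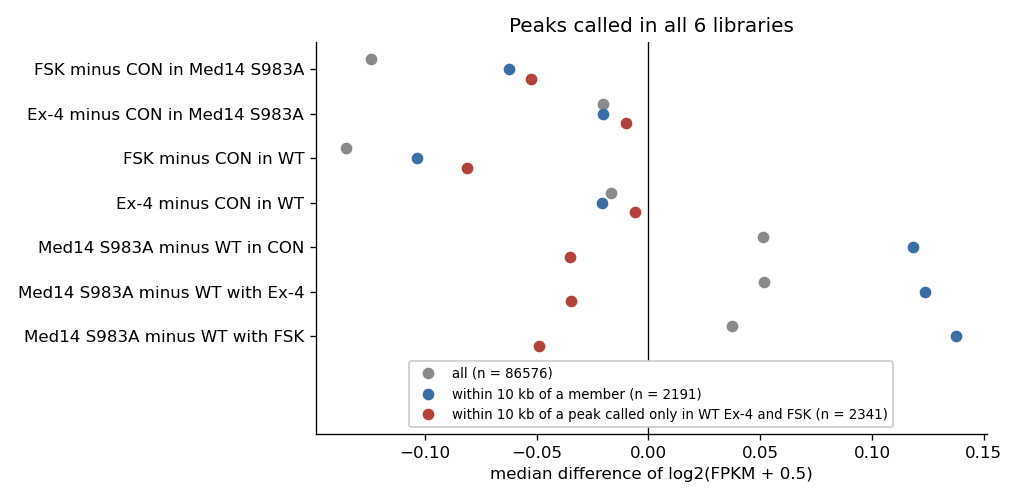
Median difference of log2(FPKM + 0.5) for 7 contrasts over all peaks called in all 6 libraries (grey), those within 10 kb of a member (blue) and those within 10 kb of a peak called in WT Ex-4 and FSK alone (red); no error is drawn because each condition has 1 library. Blue points lie right of grey ones in the 3 genotype contrasts (0.12, 0.12 and 0.14 against 0.051, 0.052 and 0.038), and red ones lie left of 0.

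The 3 peaks called in all 6 libraries near members with the largest responses had them in both genotypes. The largest response was at chr1:52707415-52708240, which had 0.632, 6.52 and 19.9 FPKM in WT CON, Ex-4 and FSK and 2.66, 9.66 and 21.4 FPKM in Med14 S983A. The member 5622 bp from it, chr1:52713392-52713507, stood at 9.46 and 16.5 FPKM with the stimuli in the mutant. Around chr9:10225077-10225502, WT had 1.09, 2.31 and 11.6 FPKM and Med14 S983A 1.07, 3.10 and 8.74 FPKM, with a member 2750 bp away at 2.55 and 3.19 FPKM. At chr9:119543633-119544386 the mutant was higher in every treatment, with 3.29, 9.87 and 18.1 FPKM against 0.912, 1.38 and 5.89 FPKM in WT. That peak lies in the part of chromosome 9 past its last full run, where the median genotype difference in CON was 0.85. The member 5754 bp from this peak stood at 2.01 and 1.70 FPKM. FSK gave the highest value at all 3 of these peaks in both genotypes, Ex-4 an intermediate one.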

How the data were processed

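The submitters' processing notes name Trim Galore, BWA, SAMtools and MACS2 and the build rn6, and the paper describes trimming, alignment, filtering and a peak call in each library; versions of Trim Galore and BWA are not given in the sources used here. FPKM, as the authors deposited them, were computed with HOMER for the merged peaks, beside the lists in which each was called. Adjustment for the Tn5 cut site is described for footprinting, and the sources used here do not tell whether the deposited FPKM include it. Coordinates are printed as deposited. The 3 mitochondrial peaks were left out.

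Samples were grouped by genotype and treatment, with 1 library each, so no test was run. Differences were taken on the log2(FPKM + 0.5) scale and counted at 2-fold. Reads were recovered from the steps between low FPKM values, to within 0.15 of a whole step; a step may be a read or an end of a pair, and intervals cover counting error only. The members and lists were chosen with earlier results of these data known, among them the shifted stretches. Regions named were the 10 members with the highest lower value, 3 at each end of the FSK to Ex-4 ratio and the 3 weakest. On each side, 3 peaks just outside the rule were named, with the lowest value in the library that excludes them. The others were 3 windows and 3 responding neighbours. Motifs and nearby genes were planned and not analysed, for want of an rn6 sequence and annotation. Alternatives covered pseudocounts, filters, scalings, fold limits, distances and choices of members. Calculations were tested on simulated data. Scripts ran in Python 3.11.15 with pandas 2.3.3, numpy 2.4.6, matplotlib 3.10.9 and scipy 1.17.1.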

Additional observations from a re-analysis of the deposited data

How the results depend on the processing

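No paired analysis was possible because the labels carry no replicate numbers and a condition has 1 library, and no library could be left out in turn for the same reason. Over 84 values under alternative settings, 57 stayed close to the reported value, and 27 moved; signs turned in some of the medians near 0 for Ex-4. Moved values are given here, and the cause was not tested unless the setting itself sets it. The search of whole peaks for motifs was not run.

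The member count of 2087 fell to 544 when a mean of 1 FPKM over the 6 libraries was required, since 4 of the 6 values are 0. The 114 members at least 2-fold higher with FSK became 355 at 1.5-fold, 4 at 4-fold, 176 and 68 with pseudocounts of 0.1 and 1, and 50 above a mean of 3 FPKM. The 6 higher with Ex-4 became 81, 0, 27, 0 and 0 under the same settings, 2 after centring and 3 after quantile normalization. The median FSK minus Ex-4 of 0.13 became 0.15 with a pseudocount of 0.1, 0.17 above a mean of 3 FPKM, 0.23 after centring and 0.16 after quantile normalization.

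For peaks near members, the median minus that of all peaks in Med14 S983A FSK, 0.062 within 10 kb, was 0.012 within 2 kb, 0.027 within 5 kb and 0.080 within 50 kb. With Ex-4 in the mutant, 9.1e-05 became -0.0096 within 5 kb and 0.0087 within 50 kb. In WT the FSK value of 0.032 became 0.0048 within 2 kb and 0.0015 within 5 kb, and the Ex-4 value of -0.0041 became -0.018 and -0.019. The genotype difference in CON, 0.067, was 0.093 after quantile normalization and 0.050 without the 4 stretches, an alternative chosen after seeing the data. The density of members in the higher stretches was 3.47 times that outside, and 3.07 times with peaks called in both stimulated mutant libraries as the denominator.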
